A study of Danio rerio with 9 samples.

Results

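The genes described here are those of the cytosolic ribosomal proteins in zebrafish embryos 3 hours after fertilization. They were taken by symbol: a locus counted when any of its gene symbols began with rpl or rps (with or without a further p) and a digit, leaving out the S6 kinases and rps19bp1, which are not ribosomal proteins. This gave 85 of the 30702 loci in each library's table, 50 of the large and 35 of the small subunit. Of these, 42 had a mean of at least 1 FPKM over the 9 libraries and were measured, 23 of the large and 19 of the small subunit. FPKM, fragments per kilobase of transcript and per 1e+06 mapped fragments, is a level corrected for transcript length and library size. Every value called a level below is such an FPKM, scaled between libraries.

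The study compared whole embryos of 3 ploidies: 3 libraries of diploids, which the study uses as controls, 3 of haploids and 3 of tetraploids. All came from crosses of TJH females with Tu males and were collected at 3 hours post fertilization (hpf), near the time when the embryo's own genome becomes active. Haploids and tetraploids were generated by a published procedure that the labels cite, and neither the number of embryos per library nor the clutches are given in the sources used here. The p-values below therefore measure the spread between these libraries, which may be technical. As a check of the stage, the summed level of 6 maternal egg and embryo genes was 1341 to 1478 in diploids, 1428 to 1468 in haploids and 1416 to 1616 in tetraploids. Of these, 2 (zar1 at 0 in every library, and dazl) belong to a set of loci described below that is near 0 throughout. Early zygotic genes, 8 in the tables, varied more, with sums of 16.3 to 113 in diploids, 1.90 to 32.9 in haploids and 14.5 to 31.2 in tetraploids. Among the 8, dharma, vox and vent belong to that set and were at 0 in every library. Markers of the enveloping layer, 5 in the tables and 4 of them at 0 throughout, summed to 0.446 to 13.3, 0.257 to 1.30 and 0.263 to 1.55 in the same order. All 4 belong to that set, so these sums are the levels of grhl3 alone. Markers of the yolk syncytial layer, also 5 with 2 of them at 0 throughout, have mxtx2 in common with the early zygotic list. Of those at 0, slc26a1 belongs to that set and hnf4a does not. The yolk syncytial layer markers summed to 2.65 to 20.1, 0.315 to 6.07 and 2.07 to 5.10. The 9 later tissue markers found (of muscle, lens, neurons and others) summed to at most 0.943 in any library, with 7 of them at 0 in all 9, but 6 of them belong to that same set near 0. In whole embryos, fewer cells of a type and less RNA per cell cannot be told apart. A pair of libraries stood apart in these genes, diploid replicate 2 with high levels throughout and tetraploid replicate 3 with scattered ones, so results that rest on them are given with and without them.

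A cytosolic ribosome has a small subunit, which binds the mRNA and reads its codons, and a large subunit, which joins the amino acids. Each ribosomal protein is needed in step with the others, and the mRNAs of vertebrate ribosomal proteins share a terminal oligopyrimidine (TOP) tract at the 5′ end, through which the mTORC1 kinase and the RNA-binding protein LARP1 set their translation as a group. A fish egg is loaded with ribosomes and with these mRNAs by the mother, so most of what is measured before and around genome activation is maternal RNA.

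The 85 loci fell into a measured and an unmeasured set with nothing between. The lowest measured locus had a mean of 22.3 deposited FPKM and the highest unmeasured one had 0.118. In the deposited tables the locus numbers of every chromosome rise along it, restart once and rise again. All 42 measured members stood in the first of these runs and all 43 unmeasured members in the second, where 12 were listed at 0 in every library. Over all genes, 38.5% of the 15165 loci of the first run and 0.283% of the 15537 loci of the second had a mean of at least 1 FPKM. The unmeasured 43 are therefore not described as silent. The same held for rpsa, a small subunit protein that the symbol pattern does not catch, which was in the second run and near 0. A symbol can occur in both runs: rpl37 was measured on chromosome 2 and listed at 0 on chromosome 21.

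The measured members lay on 22 chromosomes (build GRCz10), so they were not neighbours as a group. Their loci were short, with a median span of 4842.5 bases against 17402 over all 5881 loci tested, and 57.1% had a single transcription start in the tables against 61.4% of all. A pair of loci also holds another gene, whose reads cannot be separated: rps24 shares its locus with qrfpra, and rps8a shares its locus with the small nucleolar RNA SNORA47. Small nucleolar RNA genes also lie in introns of other ribosomal protein genes, and 162 of all tested loci carry several symbols.

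All 42 measured members were well expressed. Their mean levels ran from 22.3 for rpl37 to 1089.7 for RPL41, a 48.8-fold range, with a median of 140.5 against 12.0 over all tested loci. They ranked between 16 and 2045 of the 5881, and 33 of the 42 were in the top 10%. The median member of the large subunit had a mean level of 139.6 and that of the small subunit 147.7, a small gap beside the range of members within each subunit. The 4 highest large subunit genes made up 55.0% of that subunit's summed level, and the 4 highest of the small subunit made up 44.2%. How much fragment counting limits these values can be read from the intervals that Cufflinks gives: taken as counting error, they imply a median of 435 to 1166 fragments per member in a library.

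RPL41, which encodes the smallest ribosomal protein, lies on chromosome 23 from 25378889 to 25380062 (GRCz10, as the tables give it) and had the highest mean of the large subunit, with levels of 954, 1543 and 1033 in diploid replicates 1 to 3, 1085, 993 and 1104 in haploid replicates 1 to 3, and 1094, 1204 and 798 in tetraploid replicates 1 to 3. Diploid replicate 2 was the highest library and tetraploid replicate 3 the lowest, and the other 7 lay between 954 and 1204. rpl12, a protein at the base of the stalk that recruits translation factors, had 881, 1267 and 867 in the diploids, 790.1, 864 and 1028 in the haploids and 913, 914 and 1660.4 in the tetraploids. Here tetraploid replicate 3 was the highest and diploid replicate 2 came next. rpl18, another large subunit protein, had 422, 518 and 416 in the diploids, 446, 355 and 445 in the haploids and 449, 462 and 687 in the tetraploids. Tetraploid replicate 3 and diploid replicate 2 were again the top libraries. rpl32 had 279.7, 511 and 322 in the diploids, 381, 338 and 362 in the haploids and 387, 403 and 150.4 in the tetraploids. In this gene tetraploid replicate 3 was lower than every other library and diploid replicate 2 higher than every other.

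In the small subunit, rps14, a protein of the platform near the mRNA exit, lies on chromosome 21 from 33418567 to 33422984 and had levels of 464, 638 and 469.9 in diploid replicates 1 to 3, 474, 415 and 475 in haploid replicates 1 to 3, and 519, 517 and 734 in tetraploid replicates 1 to 3. The haploid levels lay below the tetraploid ones, with tetraploid replicate 3 highest of all. rps28, which also sits near the mRNA exit, had 362, 504 and 341 in the diploids, 357, 334 and 351 in the haploids and 389.6, 408 and 503 in the tetraploids. Diploid replicate 2 and tetraploid replicate 3 were at the top, and all 3 haploid libraries lay below the tetraploid ones. rps20, a protein of the head of the subunit, had 372, 679 and 355 in the diploids, 404, 339 and 425 in the haploids and 368, 451 and 81.8 in the tetraploids. The level in tetraploid replicate 3 was the lowest by far, but its deposited interval there ran from 0 to 163 FPKM around 64.9, much wider than for the other members. rps12 had 254, 612 and 191 in the diploids, 247, 192 and 239 in the haploids and 255, 335 and 234 in the tetraploids, with diploid replicate 2 alone above the rest.

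**Figure D1:**
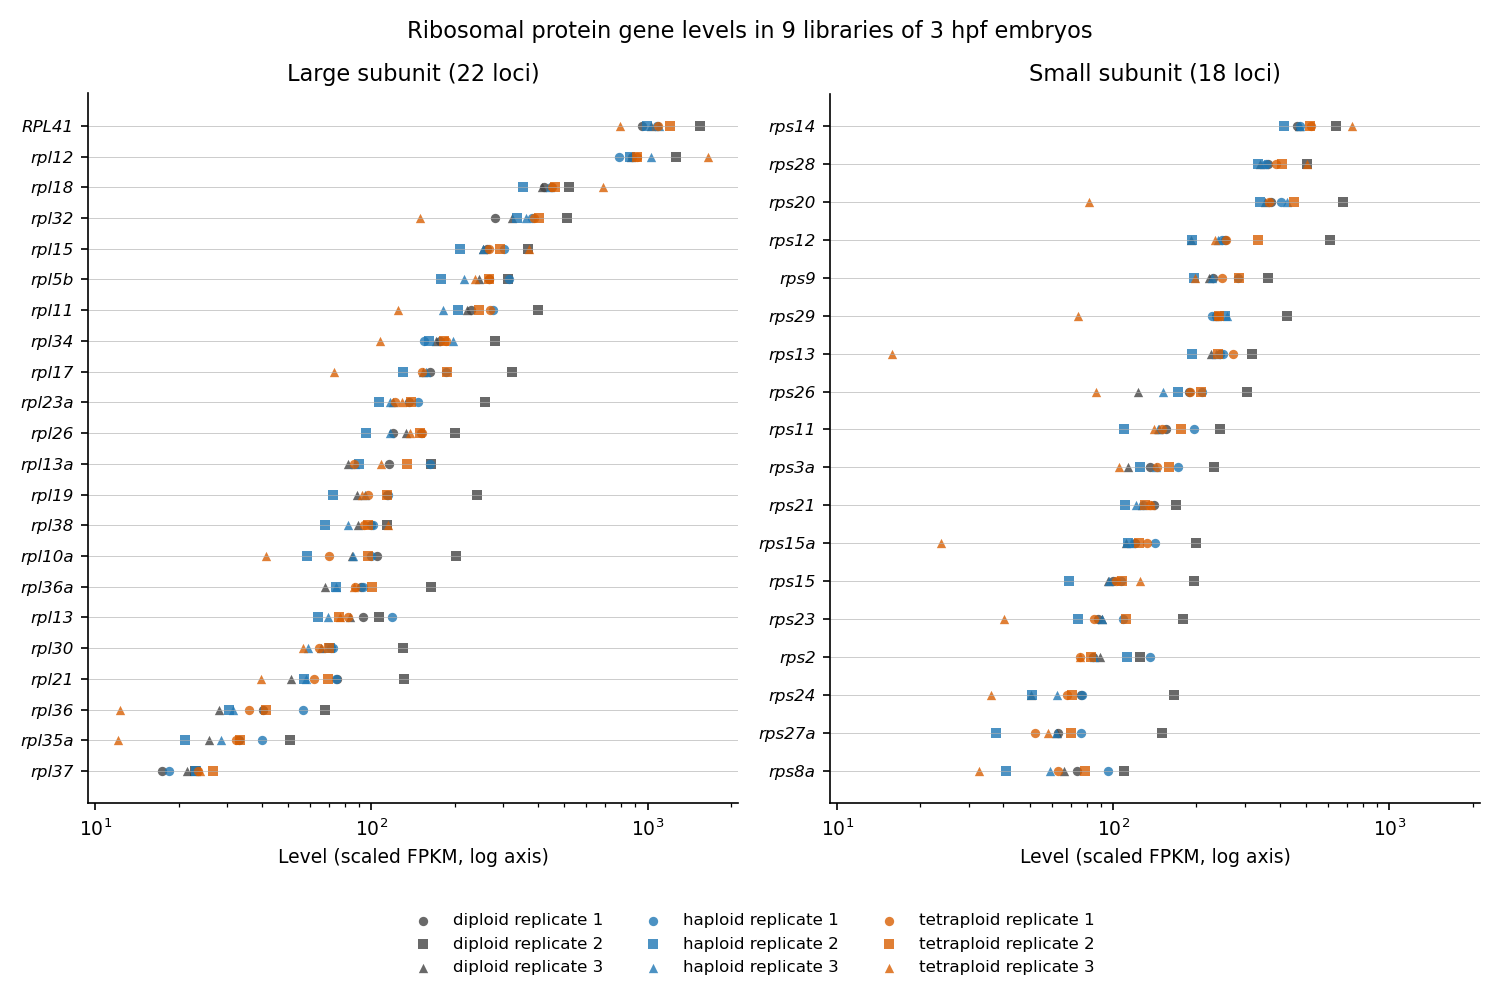
Levels of 40 measured ribosomal protein loci, 22 of the large and 18 of the small subunit, in each of the 9 libraries, in scaled FPKM on a log axis, large subunit on the left and small subunit on the right, ordered by mean. Colours mark the ploidy and shapes the replicate; diploid replicate 2 (grey squares) is the highest library for 31 of them, and tetraploid replicate 3 (orange triangles) is the lowest for 20.

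Haploid embryos, which carry a single set of chromosomes, were first set against the diploid controls. In haploids 39 of the 42 members had a lower mean than in diploids on the log2(FPKM + 1) scale, against 51.2% of all tested loci. The median log2 difference on that scale was -0.25 (0.840-fold) against -0.005 for all loci. The scaling between libraries holds the median of all loci near 0 in every comparison. Differences are therefore relative to the other loci and cannot show a change of total RNA. Not 1 member passed the test: 0 of 42 had an adjusted p under 0.05 and 0 had an unadjusted p under 0.05, where limma called 0% of all 5881 loci after adjustment and 1.38% (81 loci) before. In 0 of 42 members did the 3 haploid libraries lie wholly below the 3 diploid libraries, against 3.93% of all loci, and in 0 did they lie wholly above, against 4.66%.

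The smallest p in this comparison belonged to rps21, a small subunit protein, with levels of 141, 169 and 127 in diploid replicates 1 to 3, 128, 110.1 and 121 in haploid replicates 1 to 3, and 136, 129.9 and 137 in tetraploid replicates 1 to 3. Its groups overlapped, at 145 ± 21.4 and 119.8 ± 9.21 (SD, n = 3 each), and the log2 difference was -0.27 (SE 0.13, limma adjusted p = 0.9996). rps15, which lies near the decoding site in the head, had 100.1, 196 and 95.8 in the diploids, 107, 69.2 and 96.3 in the haploids and 102, 108 and 125 in the tetraploids. The difference of -0.46 (SE 0.27, limma adjusted p = 0.9996) was -0.13 without diploid replicate 2, the highest library. rpl19, which takes part in a bridge between the subunits, had 114, 241 and 88.7 in the diploids, 115, 72.3 and 94.5 in the haploids and 97.4, 114 and 92.4 in the tetraploids. Its log2 difference was -0.54 (SE 0.33, limma adjusted p = 0.9996), and its diploid levels spread as 148 ± 81.7 (SD, n = 3). Without diploid replicate 2 it was also -0.13.

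Without diploid replicate 2 the haploid median was -0.02, with 23 of 42 members lower. It was -0.39 without haploid replicate 1 and -0.13 without haploid replicate 2, and -0.15, with 37 of 42 lower, when each library was weighted by how well it fitted the rest.

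The second comparison set tetraploids against diploids. Of the 42 members 34 had a lower mean in tetraploids on the same log2 scale, against 50.6% of all tested loci. The median log2 difference was -0.29 (0.820-fold) against -0.005 for all. After adjustment 0 members passed, and limma called 0.017% of all loci (1 locus). Before adjustment 1 member, rpl10a, had a p under 0.05, against 4.9% of all loci. The 3 tetraploid libraries lay wholly below the 3 diploid ones in 2 members, rps2 and rpl13, against 6.02% of all loci, and wholly above in 1, rpl37, against 5.48%. These shares are near or below the background.

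rpl10a, the protein of the stalk next to the exit site of the large subunit, lies on chromosome 8 from 23716882 to 23721746 and had levels of 105, 203 and 85.4 in diploid replicates 1 to 3, 99.6, 58.6 and 85.7 in haploid replicates 1 to 3, and 70.2, 96.8 and 41.3 in tetraploid replicates 1 to 3. Diploid replicate 2 was the highest library and tetraploid replicate 3 the lowest, and the groups overlapped. The log2 difference was -0.89 (SE 0.38, limma adjusted p = 0.833). rps29, a small zinc-binding protein, had 235, 424 and 237 in the diploids, 227, 254 and 258 in the haploids and 239.7, 241 and 74.2 in the tetraploids. All libraries but diploid replicate 2 and tetraploid replicate 3 lay between 227 and 258, and the log2 difference was -0.81 (SE 0.42, limma adjusted p = 0.833). rpl17, which lines the exit tunnel, had 164, 322 and 154 in the diploids, 186, 131 and 157 in the haploids and 152, 188 and 73.0 in the tetraploids, a log2 difference of -0.65 (SE 0.37, limma adjusted p = 0.833). With both diploid replicate 2 and tetraploid replicate 3 left out, the log2 difference of rpl10a was -0.20, and those of rps29 and rpl17 turned to 0.03 and 0.09.

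Without diploid replicate 2 the tetraploid median was 0.00, with 21 of 42 members lower, and without tetraploid replicate 3 it was -0.11, with 34 of 42 lower. With both left out it was 0.12, with 6 of 42 lower, and 0 members passed. With libraries weighted the median was -0.08, with 29 of 42 lower. Of all tested loci 50.9% were lower without diploid replicate 2 and 49.7% without tetraploid replicate 3. The shares were 49.2% with both left out and 49.8% with libraries weighted.

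The third comparison set tetraploids against haploids, the pair that differ most in their number of genome copies. Here 22 of 42 members were lower in tetraploids, against 50.9% of all tested loci, and the median log2 difference was -0.03 (0.982-fold) against -0.006 for all loci. No member passed after adjustment, where limma called 0.017% of all loci (1 locus), and before adjustment 1 member, rps2, had a p under 0.05, against 7.72% of all. The groups did not overlap in 1 member that was lower in tetraploids, rps2 (background 6.53%), and in 5 that were higher, rps14, rps28, rpl18, rps21 and rpl37 (background 7.23%). These are 2.38% and 11.9% of the 42. The first and second comparisons share the diploid libraries, and this one shares libraries with each of them, so the 3 sets of values are not independent.

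rps2, a protein of the mRNA entry channel, lies on chromosome 3 from 18249135 to 18253439 and had levels of 84.1, 125 and 89.8 in diploid replicates 1 to 3, 136, 112 and 85.3 in haploid replicates 1 to 3, and 75.6, 83.0 and 75.6 in tetraploid replicates 1 to 3. All 3 tetraploid libraries lay below all 6 others, the nearest being a diploid at 84.1, and the log2 difference from haploids was -0.48 (SE 0.20, limma adjusted p = 0.639). For rps14 the tetraploid mean was 590.3 ± 125 and the haploid mean 455 ± 34.5 (SD, n = 3 each), a log2 difference of 0.36 (SE 0.18, limma adjusted p = 0.67). For rps28 they were 434 ± 60.9 and 348 ± 11.9, a log2 difference of 0.31 (SE 0.17, limma adjusted p = 0.686). In both genes every tetraploid library was above every haploid one. Without tetraploid replicate 3 the log2 differences were -0.45 for rps2 and 0.20 for both rps14 and rps28. rpl37, the member with the lowest mean level, had 17.4, 23.0 and 21.5 in the diploids, 18.4, 23.2 and 23.2 in the haploids and 23.6, 26.6 and 24.0 in the tetraploids, so that its tetraploids lay above both other groups by a small margin.

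Without tetraploid replicate 3 the median tetraploid minus haploid difference was 0.14, with 4 of 42 members lower, and without haploid replicate 1 it was 0.17. With diploid replicate 2 also left out it stayed at 0.14, with 4 of 42 lower and 0 passing. With libraries weighted it was 0.08, with 7 of 42 lower. Of all tested loci 47.9% were lower without tetraploid replicate 3, 48.3% with both left out and 49.7% with libraries weighted.

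**Figure D2:**
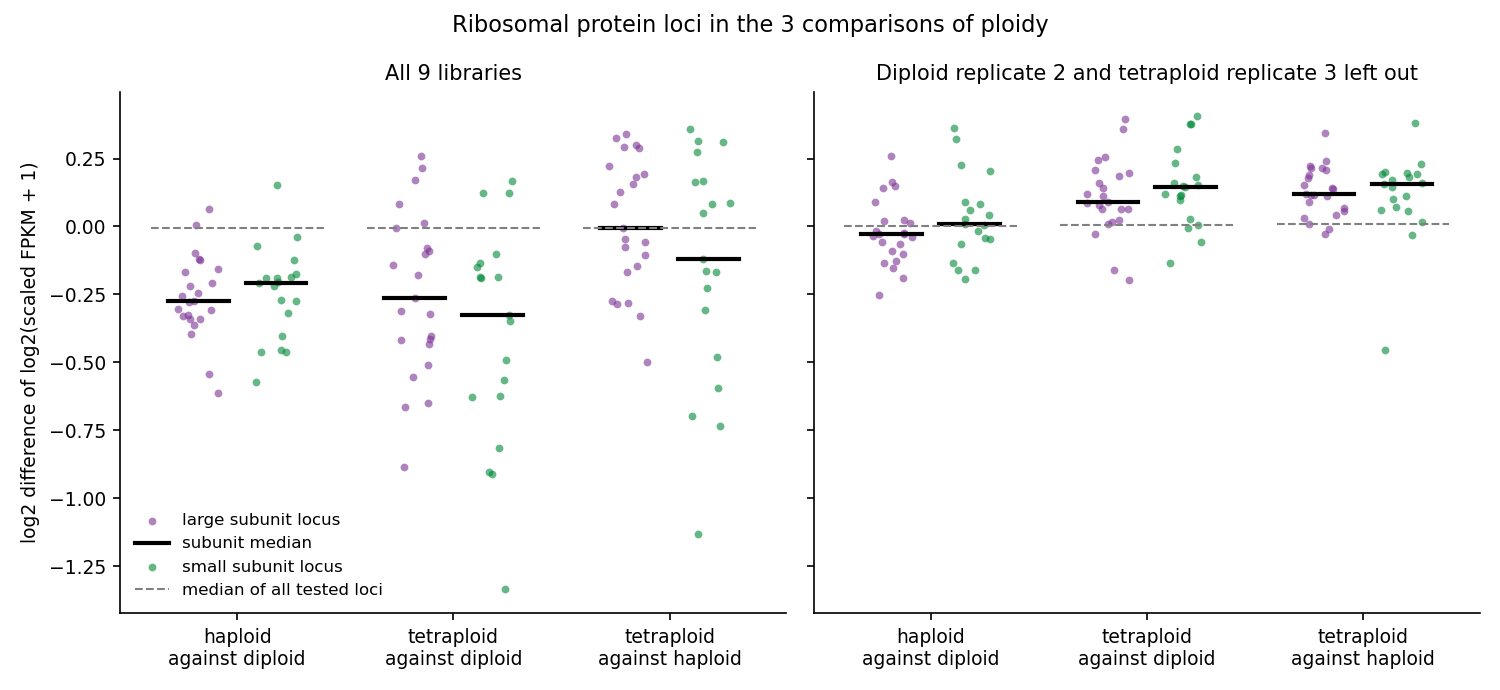
Log2 differences of log2(scaled FPKM + 1) for the 23 large and 19 small subunit loci in the 3 comparisons, each point a locus, with black bars at the subunit medians and dashed lines at the median of all tested loci. With all 9 libraries the medians of both subunits lie below 0 in the comparisons with diploids (-0.27 and -0.21, -0.26 and -0.33); with diploid replicate 2 and tetraploid replicate 3 left out they lie at -0.03 and 0.01 in haploids and at 0.09 and 0.14 in tetraploids.

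Large and small subunit genes were set against each other in each comparison. In haploids against diploids the median log2 difference was -0.27 over the large and -0.21 over the small subunit, with 21 of 23 and 18 of 19 lower. In tetraploids against diploids it was -0.26 and -0.33, with 18 of 23 and 16 of 19 lower, and in tetraploids against haploids -0.01 and -0.12, with 12 of 23 and 10 of 19 lower. The large minus small differences were thus -0.06, 0.06 and 0.11, and no test was run on them. Single libraries moved them. For haploids against diploids the difference was -0.15 without haploid replicate 1 and 0.00 without haploid replicate 3, and for tetraploids against diploids it was 0.14 without diploid replicate 3 and 0.01 without tetraploid replicate 3. For tetraploids against haploids it was 0.30 without tetraploid replicate 1 and -0.04 without tetraploid replicate 3. With the loci of rps24 and rps8a left out, those of tetraploids turned to -0.07 against diploids and -0.06 against haploids. With both diploid replicate 2 and tetraploid replicate 3 left out the 3 differences were -0.04, -0.05 and -0.04.

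The summed level of the measured large subunit genes was 1.34 to 1.52 times that of the small subunit genes in 8 libraries, lowest in diploid replicate 2, and 1.94 times in tetraploid replicate 3. These sums leave out the unmeasured loci of both subunits, so the ratio does not compare whole subunits. In tetraploid replicate 3 they include rpl12 at 1660.4 and rps20 at 81.8, the latter with the wide deposited interval given above. The rank order of the 42 levels was alike between libraries. Spearman's rho over the 42 members, given as a description across genes, was 0.928 to 0.988 over the 28 pairs without tetraploid replicate 3 and 0.695 to 0.774 over the 8 pairs with it.

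In diploid replicate 2 the members were high together. All 42 stood above the mean of the 7 libraries other than this one and tetraploid replicate 3, against 50.6% of all tested loci, by a median of 0.71 on the log2(FPKM + 1) scale (1.63-fold) against 0.003 for all loci. The large subunit genes stood 0.65 above and the small subunit genes 0.72. The excess was over 0.5 in 31 of 42 members and in 4.88% of all loci. It ran from 0.07 for rpl37 to 1.35 for rps24, with rps12 at 1.34, rps27a, a fusion with ubiquitin, at 1.33, rpl19 at 1.29 and rpl10a at 1.26. This library was the highest of the 9 for 33 of 42 members and for 9.52% of all loci.

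rps24, chosen here after its values were seen, had levels of 76.5, 166 and 50.5 in diploid replicates 1 to 3, 77.3, 50.6 and 62.8 in haploid replicates 1 to 3, and 67.9, 70.6 and 36.0 in tetraploid replicates 1 to 3. The other 8 libraries lay between 36.0 and 77.3. The measured members took 4.69% of the summed FPKM of diploid replicate 2 and 2.61% to 3.50% of that of the others. Mitochondrial genes took 21.6% there, within the 14.7% to 26.7% of the other libraries, and the maternal marker sum was 1341, the lowest of the 9. Among the 3 diploids it also had the lowest sums of early zygotic (16.3), enveloping layer (0.446) and yolk syncytial layer (2.65) markers, all within the range of the other ploidies. The part of these in the result was not tested.

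In tetraploid replicate 3 the members scattered instead. Against the same 7 libraries 27 were lower and 15 higher, with a median of -0.18. Of all 5881 tested loci 2943 were lower, with a median of -0.0005. The difference was under -1 in 11 of 42 members and in 9.22% of all tested loci. Of these 11, 5 belonged to the large subunit (of 23) and 6 to the small subunit (of 19), and the medians were -0.09 and -0.30. This library was the lowest of the 9 for 20 members and the highest for 5, while over all loci it was the lowest for 28.9% and the highest for 29.0%. Wide departures in both directions were thus seen over all genes of this library. Over all tested loci the lowest 5% of differences lay below -1.28 and the highest 5% above 0.88. The falls thus reached further than the rises over all loci as well as over members. The difference was over 0.5, a milder cutoff than the -1 used for falls, in 5 of 42 members (11.9%) and in 19.4% of all loci. This library also had the fewest loci with at least 1 FPKM, 5395 against 5809 to 5921.

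The lowest member there was rps13, a small subunit protein, named after its values were seen, with levels of 243, 317 and 226 in diploid replicates 1 to 3, 249, 193 and 235 in haploid replicates 1 to 3, and 271, 239.5 and 15.7 in tetraploid replicates 1 to 3. Its departure was -3.82, and its deposited interval in this library was 9.14 to 15.8 FPKM around 12.5. The part of counting error in this departure was not tested. The next lowest members were rps15a at -2.32, rps20 at -2.23, with the wide interval given above, rps29 at -1.69 and rpl36 at -1.51. On the other side stood rpl12 at 0.90, rpl18 at 0.69, rps14 at 0.63, rpl15 at 0.51 and rps28 at 0.47. Of the 8 highest members described above, then, 4 were high in this library.

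**Figure D3:**
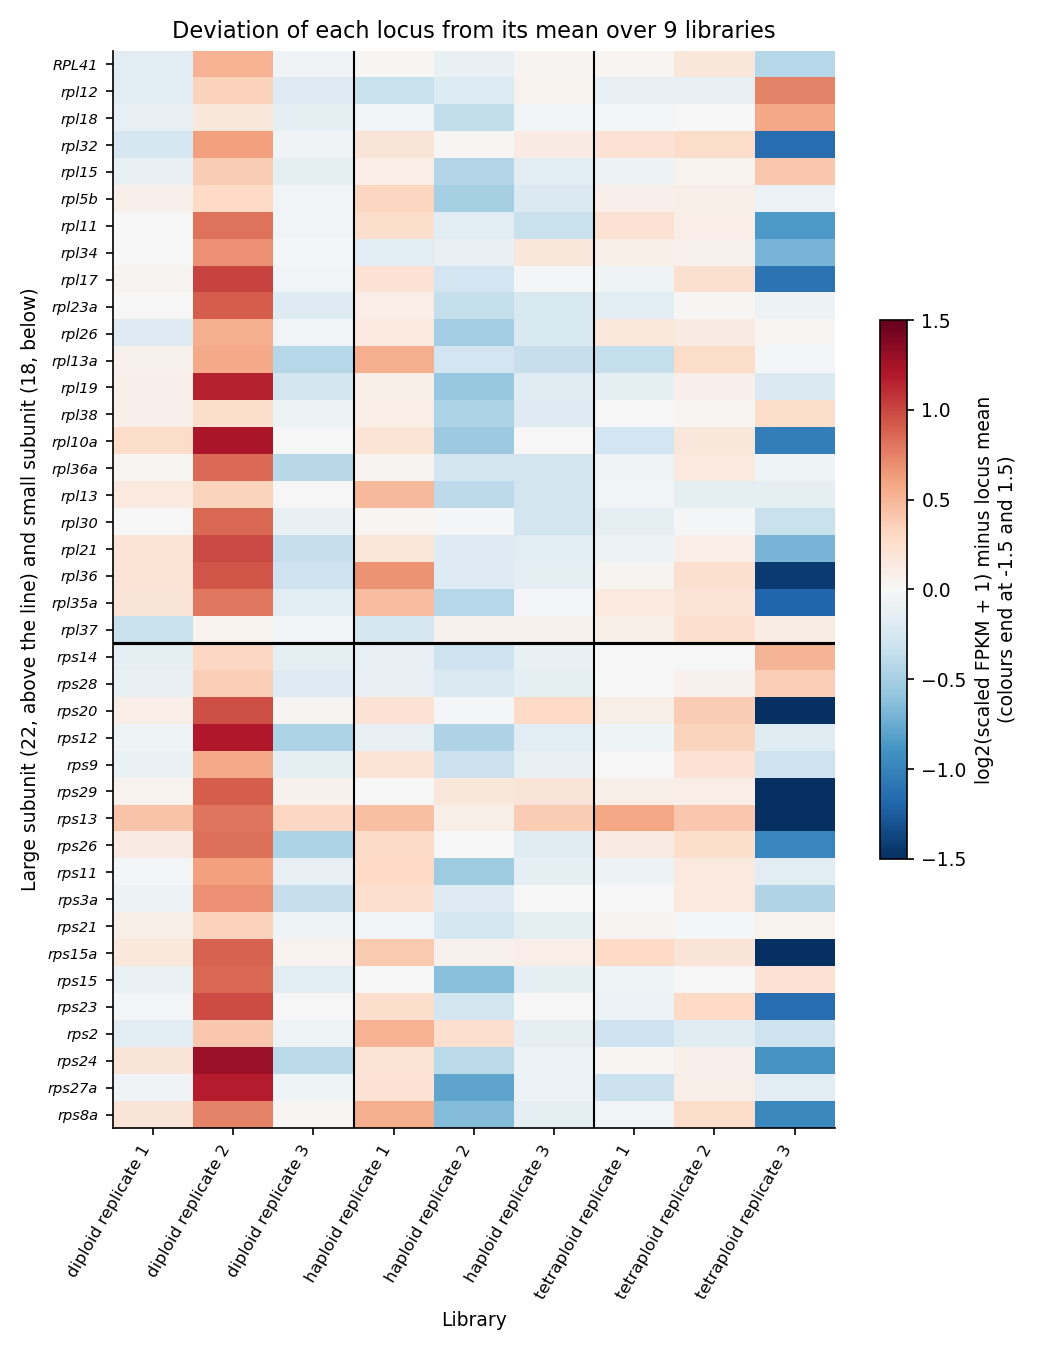
Deviation of each of 40 ribosomal protein loci from its own mean over the 9 libraries, in log2(scaled FPKM + 1), with large subunit loci above the line and small subunit loci below, ordered by level, and libraries in columns by ploidy. The column of diploid replicate 2 is red but for rpl37, which is close to white. The column of tetraploid replicate 3 mixes deep blue (rps13, rps15a, rps20, rps29, rpl36) with red (rpl12, rpl18, rps14). Haploid replicate 2 is mostly pale blue, being the lowest library for 15 of the 40.

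Spread between libraries was compared with that of all genes. The median SD of a member over the other 7 libraries, which were left after setting aside the pair in which members departed, on the log2 scale, was 0.204, against 0.221 for all tested loci. Over all 9 it was 0.379 against 0.285. Large and small subunit genes had 0.206 and 0.200 over the 7, and 0.360 and 0.508 over the 9. The steadiest member over the 7 was rps29, with a coefficient of variation of 4.48%, and the most variable was rpl13a at 28.3%. Haploid replicate 2 was the lowest library for 15 of 42 members, against 15.8% of all loci.

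Some symbols differ by a final letter only and yet stand for different proteins, so they are given beside each other. rpl13 had 93.4, 107 and 83.9 in the diploids, 119, 63.8 and 69.6 in the haploids and 81.9, 76.4 and 76.7 in the tetraploids, and rpl13a, whose introns hold small nucleolar RNA genes in vertebrates, had 116, 164 and 81.9 in the diploids, 162, 90.4 and 86.9 in the haploids and 86.1, 134 and 109 in the tetraploids. In each, haploid replicate 1 was the highest or the next to highest library. rps15a had 120.1, 199 and 111 in the diploids, 141, 113 and 115 in the haploids and 132, 124 and 23.7 in the tetraploids, so that in tetraploid replicate 3 it was low where rps15 was not. rpl36 had 40.3, 68.1 and 28.0 in the diploids, 56.3, 30.6 and 31.4 in the haploids and 36.0, 41.5 and 12.2 in the tetraploids, and rpl36a had 91.7, 164 and 67.7 in the diploids, 92.8, 74.4 and 74.7 in the haploids and 87.2, 100.4 and 86.6 in the tetraploids. rpl36 was lower than rpl36a in every library, and its drop in tetraploid replicate 3 was not seen in rpl36a. Of the pair of loci with a second gene, rps24 is given above and rps8a had 74.1, 109 and 66.5 in the diploids, 95.4, 41.0 and 59.0 in the haploids and 62.8, 79.1 and 32.7 in the tetraploids.

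Genes of the wider ribosome pathway were read from lists by name. gnb2l1, the scaffold protein RACK1 of the small subunit, was the 1 ribosomal protein outside the symbol pattern that was measured, with levels of 368, 447 and 370.0 in diploid replicates 1 to 3, 375, 342 and 347 in haploid replicates 1 to 3, and 346, 401 and 328 in tetraploid replicates 1 to 3. It was highest in diploid replicate 2, by 0.30 on the log2 scale over the 7 libraries, less than the median member. Ribosome assembly factors, which process the ribosomal RNA and fit the proteins onto it, had 131 loci in the tables, 50 of them tested. By limma 0 of the 50 passed in every comparison, and 1, 3 and 4 had an unadjusted p under 0.05, near the 1.38%, 4.9% and 7.72% of all loci. The medians were -0.08, -0.07 and -0.02 for haploids against diploids, tetraploids against diploids and tetraploids against haploids. The smallest p values were for imp4, of the small subunit processome, in haploids against diploids (29.5 ± 4.39 in diploids, 17.1 ± 8.42 in haploids, limma adjusted p = 0.9996), for tsr1, a late small subunit factor, in tetraploids against diploids (9.17 ± 0.479 in tetraploids, 12.4 ± 0.944 in diploids, limma adjusted p = 0.833), and for wdr74, a nucleolar factor of the large subunit, in tetraploids against haploids (8.54 ± 1.25 and 5.54 ± 1.43, limma adjusted p = 0.623).

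RNA polymerase I machinery, which transcribes the ribosomal RNA, had 14 loci in the tables and 5 tested, with medians of 0.01, -0.04 and -0.04 in the same order and 0 passing, also before adjustment. Its largest subunit, polr1a, had 14.2 ± 0.723 in diploids, 13.7 ± 1.88 in haploids and 16.5 ± 1.38 in tetraploids. Other vertebrate TOP mRNAs, mainly translation factors, had 25 loci and 11 tested, with medians of -0.07, -0.03 and 0.04 and 0 passing. Before adjustment 0, 1 and 1 of the 11 had a p under 0.05, beside the shares of all loci given above. eif3m, a subunit of an initiation factor, had 87.1 ± 10.3 in diploids, 82.8 ± 5.18 in haploids and 62.6 ± 14.9 in tetraploids, with a limma adjusted p of 0.833 against diploids and 0.644 against haploids. In haploids against diploids eef1da had the smallest p of these 11 (limma adjusted p = 0.9996). Its levels were 65.3 ± 35.0 in diploids, 43.2 ± 2.29 in haploids and 33.7 ± 19.4 in tetraploids, a wide spread in diploids and tetraploids. Regulators of TOP mRNA translation, such as the mTORC1 pathway and its targets, had 22 loci and 9 tested, with medians of 0.11, -0.03 and -0.23 and 0 passing, also before adjustment. All 9 had a higher mean on the log2 scale in haploids than in diploids, against 2872 of all 5881 loci. That median was also 0.11 with diploid replicate 2 and tetraploid replicate 3 left out. No test was run over this list. tsc1b, a brake on mTORC1, had 16.2 ± 1.31, 16.3 ± 1.13 and 12.3 ± 3.42 in diploids, haploids and tetraploids.

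In diploid replicate 2, where the ribosomal protein genes stood 0.71 above the 7 libraries, the medians of these lists stayed near those libraries. Single loci of a list can differ from its median. The medians were -0.04 for assembly factors (24 of 50 above), 0.03 for RNA polymerase I machinery (3 of 5), 0.04 for other TOP mRNAs (7 of 11) and -0.02 for TOP regulators (3 of 9). In tetraploid replicate 3 they were -0.26, -0.06, -0.15 and -0.08.

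**Figure D4:**
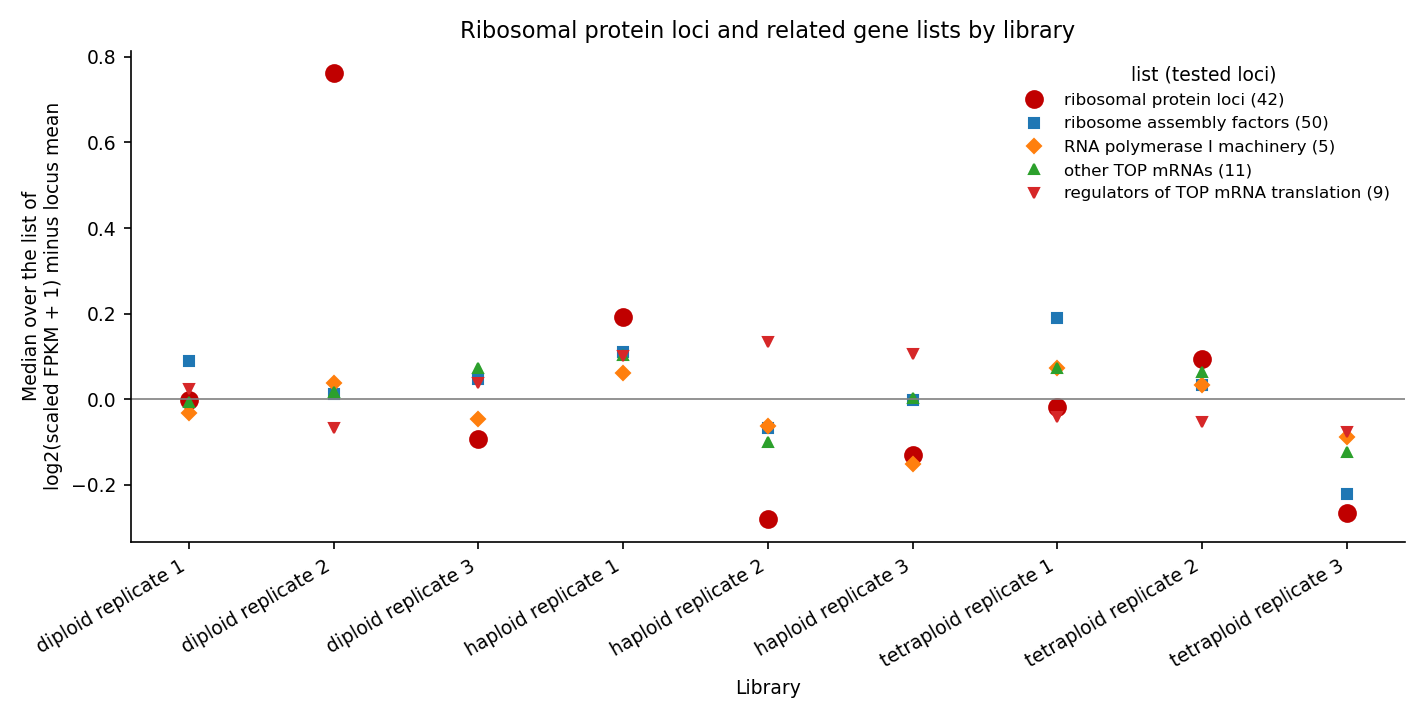
Median over each list of the deviation from the locus mean over 9 libraries, in log2(scaled FPKM + 1), for the 42 ribosomal protein loci (large red circles) and 4 related lists in each library. The ribosomal protein median is 0.76 in diploid replicate 2, where the 4 related lists lie between -0.07 and 0.04, and between -0.28 and 0.19 in the other 8 libraries.

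The authors' deposited tables of Cuffdiff values, of which there are 2, hold 1 pooled FPKM per ploidy and so have no spread. In the first, members lower in haploids than in diploids numbered 40 of 42 by the authors' deposited table, against 46.0% of 6702 loci, with a median log2 ratio of -0.23 against 0.02 for all loci. The tetraploid to diploid median in that table was -0.26, with 34 of 42 lower, where all loci had a median of 0.03 and 45.9% were lower. For tetraploids to haploids the median was -0.03. The authors' second deposited table gave -0.08 in haploids, with 33 of 42 lower, where all its loci had a median of 0.20 and 22.0% were lower. It gave -0.13 for tetraploids against diploids, with 27 of 42 lower, where all loci had a median of 0.18 and 31.7% were lower. Levels in both of the authors' deposited tables were higher than those of the single libraries. In the authors' first deposited table RPL41 stood at 2785, 2524 and 2493 FPKM for diploids, haploids and tetraploids. The means of its scaled levels in the libraries were 1177, 1060.3 and 1032. In that table rps14 stood at 1185, 1050.3 and 1400.2 FPKM, against scaled means of 524, 455 and 590.3. The authors' second deposited table gave 2583, 2633 and 2520 FPKM for RPL41 and 1099, 1093 and 1460 FPKM for rps14.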

How the data were processed

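RNA sequencing libraries of zebrafish embryos at 3 hpf were compared, 3 each of diploids, haploids and tetraploids, grouped by the ploidy label and numbered in accession order within a group. Per the labels' protocols, RNA was extracted with Trizol and libraries were made by standard Illumina procedures. The submitters' processing notes list the build GRCz10 and the tools HISAT2, Cufflinks, Cuffdiff, Trim Galore and FastQC. Their versions, the annotation and the strand setting were not given in the sources used here. The authors deposited FPKM values per library, with Cufflinks intervals, and tables of pooled Cuffdiff FPKM per ploidy. Depth was not stated and no read counts were recovered, so no count test was run.

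FPKM were scaled by median-of-ratios factors over 5767 loci (0.793 to 1.05). The 5881 loci with a mean of at least 1 FPKM, after leaving out 5 with a failed status, were put on the scale log2(FPKM + 1). A single limma model (version 3.58.1, R 4.3.3) with a trended prior variance took in all 9 libraries and left 6 residual degrees of freedom. A locus passed at a Benjamini-Hochberg adjusted p under 0.05 over all loci tested. A fold change on this scale understates that of low genes. Members and lists were chosen with earlier results of these data known, so no test was run over the list.

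Values in every library are given for the 4 members of highest mean level in each subunit, the 3 with the smallest p in each comparison, any that passed, and those whose symbols share a number. A few named loci are counted but not reported singly here. Of each related list, up to 3 genes with the smallest p could be named. Alternatives were 2 other pseudocounts, 2 other filters, unscaled FPKM, library weights, a block of library sets, the 6 libraries compared, leaving out loci of several symbols and leaving out each library. Leaving out diploid replicate 2 and tetraploid replicate 3 together was added after seeing the data.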

Additional observations from a re-analysis of the deposited data

How the results depend on the processing

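In all 18 alternative fits, 0 ribosomal protein genes passed in any comparison. The number of all loci called was 0 for haploids against diploids, with 0 to 1 when single replicates were left out (1 without diploid replicate 1). For tetraploids against diploids it was 1, and 0 with a pseudocount of 5, with no filter, with FPKM as deposited, with the replicate block, with the 6 libraries compared alone and with diploid replicate 2 and tetraploid replicate 3 both left out, and 0 to 1 with single replicates left out. For tetraploids against haploids it was 1, and 0 with no filter, with the replicate block, with the 6 libraries alone and with both libraries left out, and 0 to 1 with single replicates left out. The cause was not tested.

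The member median ranged from -0.39 to -0.02 for haploids against diploids, from -0.41 to 0.00 for tetraploids against diploids and from -0.13 to 0.17 for tetraploids against haploids when single replicates were left out. It was 0.12 for tetraploids against diploids with both libraries left out, where rps29 and rpl17 turned to 0.027 and 0.0896. With FPKM as deposited the medians were -0.28, -0.41 and -0.13, where all loci moved to -0.03, -0.11 and -0.09. In that setting 40, 37 and 26 of 42 members were lower, beside 56.3%, 66.6% and 62.5% of all loci. Without a filter, which brings in the members near 0, the member medians were -0.06, -0.05 and 0.

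The large minus small subunit difference ranged from -0.15 to 0.00, from 0.01 to 0.14 and from -0.037 to 0.30 with single replicates left out (0.30 without tetraploid replicate 1, -0.037 without tetraploid replicate 3). It was -0.0542 for tetraploids against diploids and -0.0371 for tetraploids against haploids with both libraries left out, -0.074 and -0.058 with loci of several symbols left out, and -0.00349 for tetraploids against haploids without a filter.

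The titles give the libraries running numbers, so that consecutive ones form sets with 1 library of each ploidy. Correlations of deviations from the group means were -0.11 to 0.23 within sets and -0.13 to 0.23 across them. With 3 libraries a group, these overlapping ranges cannot show whether a set shared a clutch or day, which the labels do not say. The block left the member medians at -0.25, -0.29 and -0.03 and called 0 loci in each comparison. In tetraploid replicate 3 the fragments implied by the intervals fell to 1.73 for 1 member, rps20, against 435 for the median member. The interval of rps20 was 0 to 163 FPKM around 64.9, where rps13, at a lower 12.5, had 9.14 to 15.8. The cause of the wide interval was not tested.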
